A study of Mus musculus with 3 samples.

Results

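The Th2 culture was compared with naive CD4 T cells on 1 array with 2 colours, in which the Cy5 channel held RNA of the Th2 culture and the Cy3 channel RNA of naive cells. It is 1 of 3 arrays of a study that set Th2, Th9 and induced regulatory T cell (iTreg) cultures against naive cells. Naive CD4 T cells were taken with magnetic beads from spleens of C57BL/6 mice that were 6 to 8 weeks old. For the Th2 culture they were stimulated for 3 days with plate-bound anti-CD3e and soluble anti-CD28 (10 µg/ml each), 1 ng/ml of IL-2, 5 ng/ml of IL-4 and 2 µg/ml of a blocking antibody to IFN-γ. For labelling, 0.2 µg of total RNA was used. The cultures set beside it, as far as the labels give them, had the same stimulation. Cells for Th9 were given 0.2 ng/ml of IL-2, 1 ng/ml of IL-4 and 2 ng/ml of TGF-β1, with the IFN-γ antibody at 5 µg/ml. Those for iTreg were given 0.4 ng/ml of IL-2 and 5 ng/ml of TGF-β1, with antibodies at 5 µg/ml against both IFN-γ and IL-4. There was 1 biological replicate and no dye swap, and among these samples no culture stimulated without polarising cytokines. Activation, the cytokines and the dye therefore cannot be told apart in a ratio of Th2 over naive, and values are described by size, with no test.

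The members are the genes with a probe well above background in both channels. They number 10949 of 19745 genes with a named probe. A further 705 genes were above background only in the Th2 channel and 928 only in the naive channel. For these the ratio is an estimated bound, written as at least a value, and no strict limit. The remaining 7163 were above background in neither.

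Th2 cells are the helper T cells of responses to worms and of allergy, and they secrete IL-4, IL-5 and IL-13. IL-4 binds a receptor made of IL-4Rα and the common γ chain, which activates JAK1, JAK3 and the transcription factor STAT6, and STAT6 induces Gata3. GATA3 acts on the Il4, Il5 and Il13 genes, which lie beside each other in 1 locus. A naive T cell is small and quiescent and recirculates through lymph nodes. On stimulation through its antigen receptor it grows, divides and turns to aerobic glycolysis.

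By a ratio of 2-fold or more, 1621 measured genes (14.8%) were higher in the Th2 culture and 1591 (14.5%) lower. In 613 genes the ratio was at least 4-fold higher, and in 324 at least 4-fold lower. The median log2 ratio of Th2 over naive was -0.02, with quartiles of -0.62 and 0.55. The value given below after ± is the scanner software's error of its own log2 ratio, set beside the ratio after loess. It had a median of 0.22, and probes spotted repeatedly varied with a median SD of 0.050 (198 probes). These errors cover 1 hybridisation and not the spread between cultures. The 2 ratios can differ by more than the error. For Il4 they were 5.08 after loess and 6.05 by the scanner, with an error of 0.61. The median signal was 91 in the naive channel over a background of 26, and 102 in the Th2 channel over a background of 49. In a bulk sample, fewer cells of a type and less RNA per cell cannot be told apart.

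**Figure D1:**
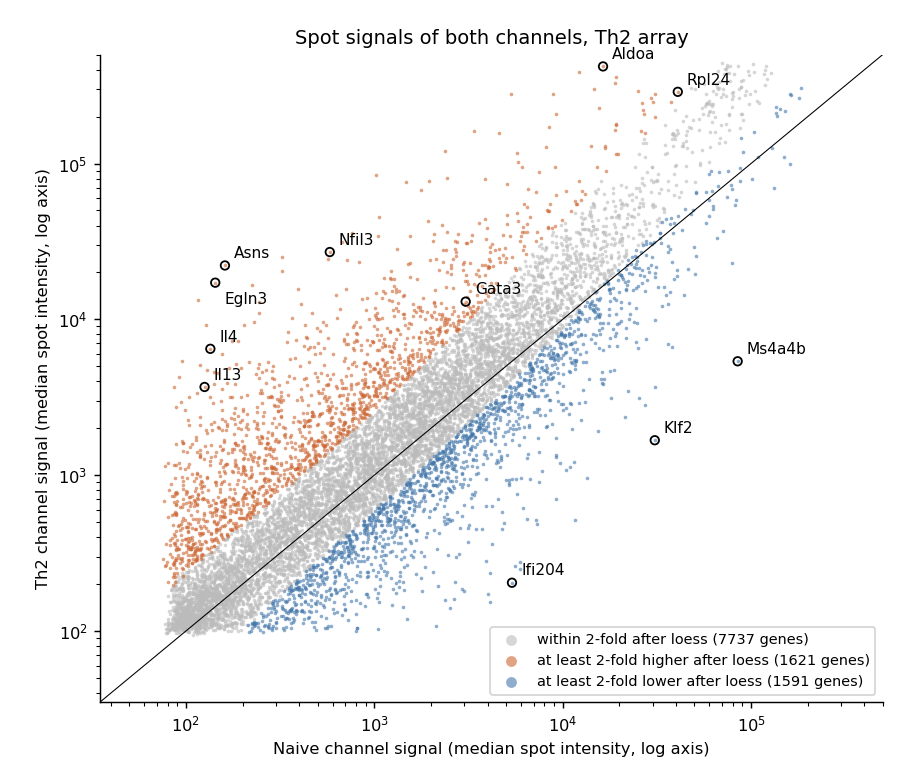
Median spot intensity of each measured gene in the naive channel (x, log axis) and the Th2 channel (y, log axis) of the Th2 array, coloured by the ratio after loess normalisation, with 11 genes circled. Il4, Il13, Asns and Egln3 lie far above the line of equal signal and Klf2 and Ms4a4b far below it; at high intensity the cloud as a whole lies above that line.

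Bright spots were brighter in Cy5 as a group, and the choice of scaling acts on them most. The ratios used here were normalised by loess, which centres the ratios at each intensity. With a single median per array in place of loess, 2783 genes passed 2-fold upwards and 810 downwards, so that the share of higher among all called genes went from 50.5% to 77.5%. The median of all measured genes moved by 0.33. Values quoted as "by median centring" are given relative to that shifted median, where 2000 genes were higher and 1377 lower. In the highest of 4 equal bins of intensity, loess called 12.2% higher and 19.0% lower and a single median called 37.4% and 5.04%. Lists of bright genes are therefore given with both values where they differ in direction or in size.

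The defining genes of the lineage and of T cells were measured first. Il4, Il13 and Gata3 were all higher in the Th2 channel, with the values given below. The CD4 T cell genes remained bright in both channels. Cd4 had a signal of 11529 in naive cells and 14317 in the Th2 culture, Cd3e 37935 and 23378, and Cd3d 51329.5 and 65752. After loess their log2 ratios were -0.62 ± 0.21 (0.40 by the other Cd4 probe), -1.94 ± 0.27 and -1.12 ± 0.23.

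Markers of NK and CD8 T cells and of myeloid cells were mainly lower in the culture, while those of other cells went both ways. Of 10 measured NK and CD8 T cell markers, 9 were at least 2-fold lower and none higher, with a median log2 ratio of -2.71, and 3 others were lower by bounds, a rule that 121 of the 928 genes above background only in naive cells (13%) met. Klrd1, an NK receptor subunit, went from a signal of 3010.5 to 179.5 (-4.21 ± 0.53) and Klra8 from 4118 to 234 (-4.38). The summed signal of the list's measured members was 16677.5 in naive cells and 2506.5 in the culture. Cd8a was at background in both channels, and Cd8b1 stood at 0.06. Myeloid markers had 7 of 11 measured members lower, with Mpo, myeloperoxidase, at -3.89 and Tyrobp at -2.91, and 4 more lower by bounds. Their summed signal, 77615 and 82809, came largely from Siglech (33692 and 42041) and Csf3r (15658.5 and 19439), which were looked at after their values were seen. Cd14, Fcgr1 and Spi1 were at background in both channels.

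Of 16 B cell markers with a probe, 8 were at background in both channels, among them Ms4a1, Cd79a and Pax5. Of the 4 measured, Cd79b stood at 2.08, Fcmr at 3.82, Cd22 at -0.77 and Cd72 at -0.86, and their summed signal was 1636.5 in naive cells and 5567.5 in the culture. Of 5 measured plasma cell markers 3 were higher and 2 lower (median 1.35), with Irf4 at 3.87, Xbp1 at 1.64, Derl3 at 1.35, Prdm1 at -1.30 and Jchain at -2.96. Of 4 measured mast cell and basophil markers 1 was higher and 1 lower (median 0.57), with Cyp11a1 at 2.65, Hdc at 0.59, Kit at 0.55 and Tpsb2, a mast cell protease, at -2.41. Of 6 measured erythroid and platelet markers 1 was higher, Epor (2.82), and 3 lower, among them Hba-a1 (-2.54) and Hbb-bt (-2.20). The part these other cells have in the ratios below was not tested.

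The cytokine genes of Th2 cells had some of the highest ratios on the array. Il4 (NM_021283) had a signal of 135 in naive cells and 6467 in the Th2 culture, a log2 ratio of 5.08 ± 0.61 or 33.7-fold. Il13 had 125.5 and 3680 (4.41 ± 0.56, 21.3-fold). Both naive signals were close to background, so a small error in them changes these ratios, and the Th2 signals were far above it. Il5, which drives eosinophil production, was at background in naive cells (81) and at 689 in the Th2 culture, at least log2 2.65 higher. Il3, a growth factor of basophils and mast cells, went from 101 to 1402 (3.34 ± 0.50). Il24, a cytokine of the IL-10 family, went from 111 to 327 (1.24 ± 0.30). Thus 4 of 4 measured Th2 cytokine genes passed 2-fold upwards, and 3 more by bounds, where 282 of 705 such genes (40.0%) met that rule. These 3 were Il5, Il9 (at least 2.64) and Csf2 (at least 1.67). Il10 had 110 in the Th2 culture, little above background, for a bound of 0.41. Areg and Il31 were at background in both channels.
The promoters of Il4 and Il13 are shown because these genes carried the highest ratios of the list. Capitals mark AGATAA or TGATAA, core letters of GATA factor sites, and the STAT palindrome, which is TTC and GAA with any 4 bases between, searched on both strands. The windows end at the base before the annotated start (RefSeq, GRCm38.p6; Il4 at chr11:53617339-53617468, minus strand; Il13 at chr11:53634703-53634808, minus strand).
Il4: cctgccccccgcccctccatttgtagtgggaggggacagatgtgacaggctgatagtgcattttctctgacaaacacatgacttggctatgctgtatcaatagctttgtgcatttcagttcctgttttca
Il13: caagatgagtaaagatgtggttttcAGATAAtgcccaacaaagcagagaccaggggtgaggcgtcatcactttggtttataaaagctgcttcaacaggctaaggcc
Il13 held AGATAA from 81 bases before the start, and the Il4 window held none of the 3 motifs. Over the 300 bases around the start, AGATAA was in 3 of 8 promoters of the Th2 cytokine list that the table holds (Csf2, Il13 and Il3), TGATAA in 0 and the STAT palindrome in 2 (Il3 and Il9). Among all 8846 measured genes with a promoter in the table the shares were 6.91%, 4.44% and 5.34%. Among all 27025 promoters of the table, measured or not, they were 11.4%, 9.26% and 6.99%. For genes with several promoters in the table (4163 genes), only the first listed was searched. Whether the Il4 window lies at the main start of that gene was not checked. A match is a run of letters and no evidence of binding, and the absence of one says nothing about the factor.

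The genes on either side of the cytokine locus on chromosome 11 were looked at after the cytokine values were known. In annotation order they run Septin8, Kif3a, Il4, Il13, Rad50, Il5 and Irf1. Rad50, a DNA repair gene whose introns hold the locus control region of the Th2 cytokines, had a signal of 890 in naive cells and 5258.5 in the Th2 culture (2.12 ± 0.29, and 1.86 by its other probe). Kif3a, a kinesin motor gene, had 551.5 and 2977.5 (2.05 ± 0.28, and 0.94 by its other probe). Septin8, a cytoskeletal GTPase gene, had 272 and 1880 (2.43 ± 0.33). Rad50, Kif3a and Septin8 were thus all at least 4-fold higher by the brighter probe. On the Th9 array the same genes stood at 1.30, 0.79 and 0.96, and on the iTreg array at 0.08, 0.87 and -0.50. Beyond them the ratios differed from gene to gene: Shroom1 stood at 0.30, Uqcrq at 0.24, Irf1 at -1.80, Slc22a5 at 0.22 and Pdlim4 at -3.77. Farther along, P4ha2, a prolyl hydroxylase of collagen, stood at 4.20, next to Csf2 and Il3. It was also higher on the other arrays, at 3.86 in Th9 and 2.70 in iTreg.

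**Figure D2:**
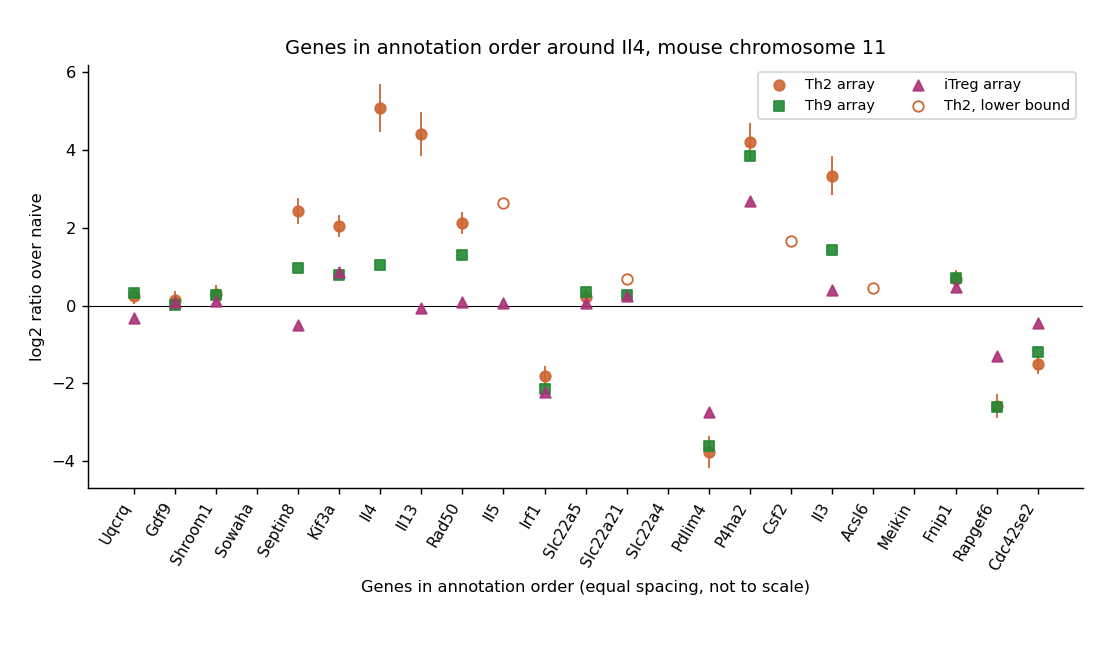
Log2 ratio over naive of genes around Il4 in annotation order (equal spacing, not to scale) on the Th2, Th9 and iTreg arrays. The bar is the scanner's error of its own Th2 ratio, and open circles are lower bounds. Septin8, Kif3a, Il4, Il13 and Rad50 are each above 2 on the Th2 array, between Shroom1 at 0.30 and Irf1 at -1.80.

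Among 28 measured transcription regulators tied to the Th2 fate, 11 were at least 2-fold higher and 4 lower. Their median was 0.41 (quartiles -0.62 and 2.09, and 0.89 by median centring). The list did not set Th2 apart, with medians of 0.54 on the Th9 array and 0.26 on the iTreg array. There 10 members each were at least 2-fold higher, and 5 and 4 lower. Bhlhe40 stood at 4.32 in Th9 and 3.34 in iTreg, Irf4 at 3.56 and 3.59, and Rbpj at 4.23 and 3.75. The values that follow are those of the Th2 array. Gata3 (NM_008091) had a signal of 3054 in naive cells already and 12986 in the Th2 culture (1.40 ± 0.24). Nfil3, a leucine zipper factor induced by IL-4, had the highest ratio of the list, from 580 to 27032 (4.92 ± 0.53). Bhlhe40, a basic helix-loop-helix factor that sustains cytokine production, went from 407 to 12492.5 (4.44 ± 0.49). Irf4, induced by antigen receptor signals, went from 274 to 5349 (3.87 ± 0.45). Pparg, a nuclear receptor for fatty acids, went from 173 to 2328 (3.34 ± 0.42). 
Rbpj, the nuclear partner of Notch, stood at 4.08 (2.30 by its other probe), Zbtb32 at 3.23, the repressor Gfi1 at 2.30, Stat5a at 2.02 and the AP-1 factor Batf at 1.64. Other regulators named for this fate were not higher. Stat6 went from 2519.5 to 2053 (-0.72 ± 0.22) and Maf, an activator of Il4, from 435 to 243 (-0.99 ± 0.25). Lower still were Ets1 (-1.92), Nfatc1 (-1.87, and 0.34 by its other probe), Ikzf1 (-2.01, and 0.00 by its other probe) and Jun, from 8828 to 2122 (-2.62 ± 0.32). The disagreeing probes leave the values of Nfatc1 and Ikzf1 unsettled.

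**Figure D3:**
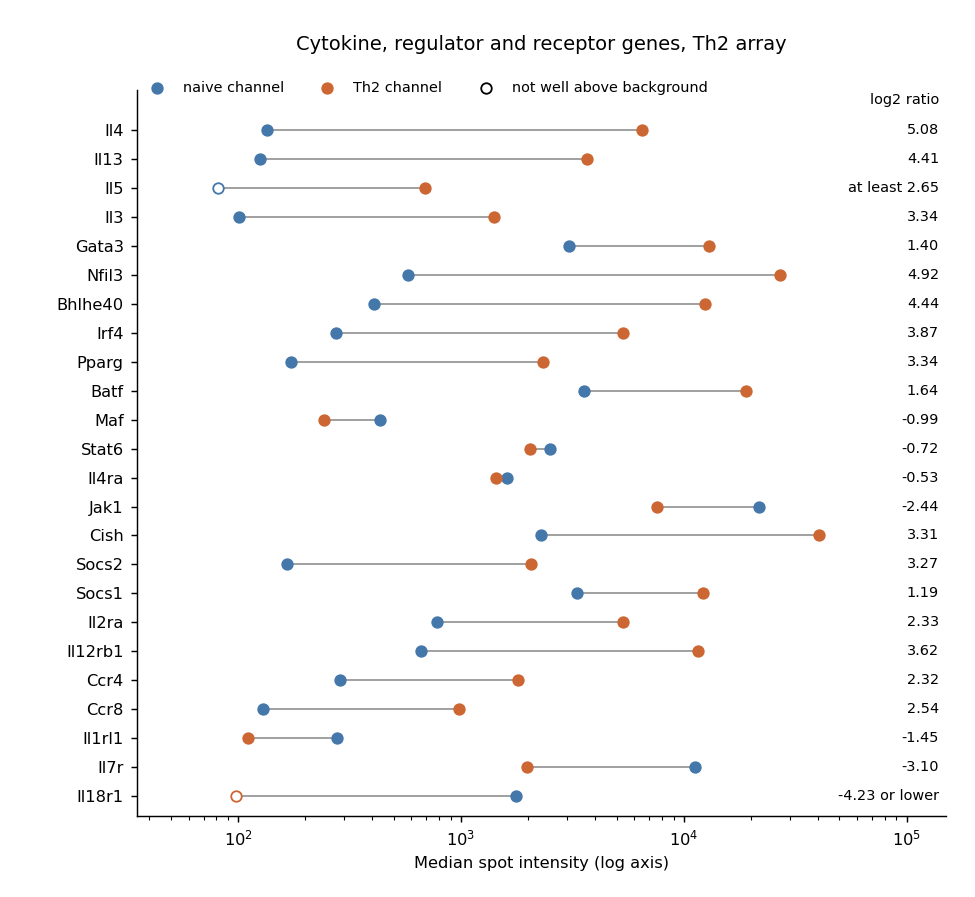
Median spot intensity (log axis) of 24 cytokine, regulator and receptor genes in the naive and the Th2 channel, with the log2 ratio after loess at the right; open circles are signals not well above background. Il4, Nfil3 and Bhlhe40 span the widest gaps, while Stat6 and Il4ra have nearly the same signal in both channels.

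The components of IL-4 signalling went different ways. Il4ra, the receptor's ligand-binding chain, had 1615 and 1432 (-0.53 ± 0.21), and Il2rg, the common γ chain, 10146.5 and 7650 (-1.20 ± 0.23, -0.70 by median centring). Jak1, the kinase on IL-4Rα, went from 21663 to 7617.5 (-2.44 ± 0.30, -1.80 by median centring), and Jak3, the kinase on the γ chain, from 1165 to 4660.5 (1.55 ± 0.25). Of the genes that damp the signal, some were higher, with Cish from 2283 to 40485 (3.31 ± 0.38), Socs2 from 165 to 2069 (3.27 ± 0.43) and Socs1 from 3329 to 12248 (1.19 ± 0.23). The adaptor Irs2 stood at 1.27 and the phosphatase Ptpn2 at 1.15, while the inhibitors Socs3 (0.49), Socs5 (-0.03), Ptpn6 (-0.27), Pias1 (-0.45, its probes from -1.14 to -0.07) and Ptpn1 (-0.86) lay within 2-fold, and Pik3r1, the regulatory subunit of PI 3-kinase, stood at -1.58 and Inpp5d, the lipid phosphatase SHIP1, at -1.11. Of 22 measured, 6 passed 2-fold upwards and 4 downwards. Their median was -0.37 after loess and 0.06 by median centring, so the direction of the list depends on the scaling.

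Target genes of IL-4 and STAT6 were mostly higher. Of 24 measured, 16 were at least 2-fold higher and 3 lower, with a median of 1.55 (quartiles -0.08 and 2.37; 1.68 by median centring). After Nfil3 the highest was Plcd1, a phospholipase C, from 147.5 to 4542.5 (4.49 ± 0.54). Asb2, a ubiquitin ligase subunit, stood at 3.02, Penk, the enkephalin precursor, at 2.61, the zinc transporter Slc39a8 at 1.53 and Rnf128, a ubiquitin ligase of T cell anergy, at 1.57. Xbp1, a factor of secretory cells, went from 4007.5 to 22119 (1.64 ± 0.25) and Ecm1, an extracellular protein that Th2 cells need to leave lymph nodes, from 4094 to 27208 (1.87 ± 0.27). Lower were Bcl6 (-1.45), the integrin chain Itgb3 (-1.74) and Igfbp4 (-1.25). Over the 22 members measured on all 3 arrays the median was 1.55 in Th2, 1.14 in Th9 and 0.54 in iTreg. The Th2 medium held 5 ng/ml of IL-4 and the Th9 medium 1, and the iTreg medium an antibody against it. With 1 culture each the differences were not tested. The STAT palindrome was in the promoters of 2 of 25 members, measured or not (8.0%, against 5.34% of measured genes and 6.99% of all promoters).

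Of 18 measured receptors 6 were at least 2-fold higher, 5 lower and 7 within 2-fold, with a median of 0.26. Il12rb1, a chain shared by the IL-12 and IL-23 receptors, went from 661 to 11573 (3.62 ± 0.41, and 2.35 by its other probe). Ccr8 went from 129.5 to 978.5 (2.54 ± 0.37) and Ccr4 from 286 to 1800 (2.32 ± 0.32), both chemokine receptors of Th2 cells. Neither was particular to the Th2 array: Ccr8 stood at 2.93 in Th9 and 3.35 in iTreg, and Ccr4 at 2.14 and 1.59. For the 17 receptors measured on all 3 arrays the median was 0.31 in Th2, 0.05 in Th9 and 0.36 in iTreg. On the Th2 array the IL-2 receptor chains Il2ra and Il2rb stood at 2.33 and 1.72. Cysltr1, a leukotriene receptor, was at least 2.26 higher. Lower were Il7r, which went from 11249 to 1975 (-3.10 ± 0.35), Il6st from 2070.5 to 446.5 (-2.47), Il6ra from 16435 to 6334.5 (-2.22) and Ifngr1 from 7047 to 3377 (-1.66). Il18r1 went from 1767 to background and was lower by at least log2 -4.23. Il1rl1, the IL-33 receptor found on memory Th2 cells, went from 277 to 111 (-1.45 ± 0.32). Within 2-fold were Il10ra (0.87), Il12rb2 (0.43), Ifngr2 (0.20), Il9r (0.16) and Il21r (-0.49), among others.

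Regulators of the other T helper fates were mostly lower, 13 of 22 measured against 2 higher (median -1.20; -1.09 by median centring). Tbx21, which directs Th1 fate and was chosen after its value was seen, went from 1131 to 308 (-2.08 ± 0.31), Eomes from 1064 to 153.5 (-2.87 ± 0.41), and Tox from 2923 to 548 (-2.71 ± 0.34). Tcf7 stood at -2.28 (-0.97 by its other probe). The Treg factor Foxp3 had 432 and 310 (-0.68). Ascl2, a follicular helper factor, went from 98.5 to 516.5 (2.01 ± 0.37), and Ikzf4 stood at 1.88 (-0.02 by its other probe).
Of 12 measured cytokines of other fates 5 were at least 2-fold higher and 3 lower. Ifng, the Th1 cytokine, went from 1084.5 to 481.5 (-1.42 ± 0.26), Ccl3 from 548 to 159 (-1.87) and Ccl5 from 30743.5 to 19774 (-1.81; -0.93 by median centring). Il21, a cytokine of B cell help, went from 97 to 1611 (3.58 ± 0.52), lymphotoxin, Lta, from 1096 to 10135 (2.68 ± 0.33) and Tnfsf11, RANK ligand, from 290.5 to 1438.5 (1.99). The genes lower here (Tbx21, Eomes, Ifng, Ccl3, Ccl5) are also expressed by NK and CD8 T cells. The summed signal of their joint marker list was lower by the values given above. Its CD8 gene Cd8b1 was not (0.06), and Cd8a was at background in both channels. The part of those cells was not tested.
Cytotoxic granule genes were mixed, with 5 of 13 higher and 6 lower. Gzmb, granzyme B, went from 1426.5 to 10877.5 (2.36 ± 0.30), Serpinb6b, a serpin, from 1123 to 18464 (3.43) and the cystatin Cst7 from 1196 to 13276 (2.89). Gzma went the other way, from 44115 to 14319 (-2.80 ± 0.33), with Ctsw at -2.40 and Gzmm at -1.72.

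**Figure D4:**
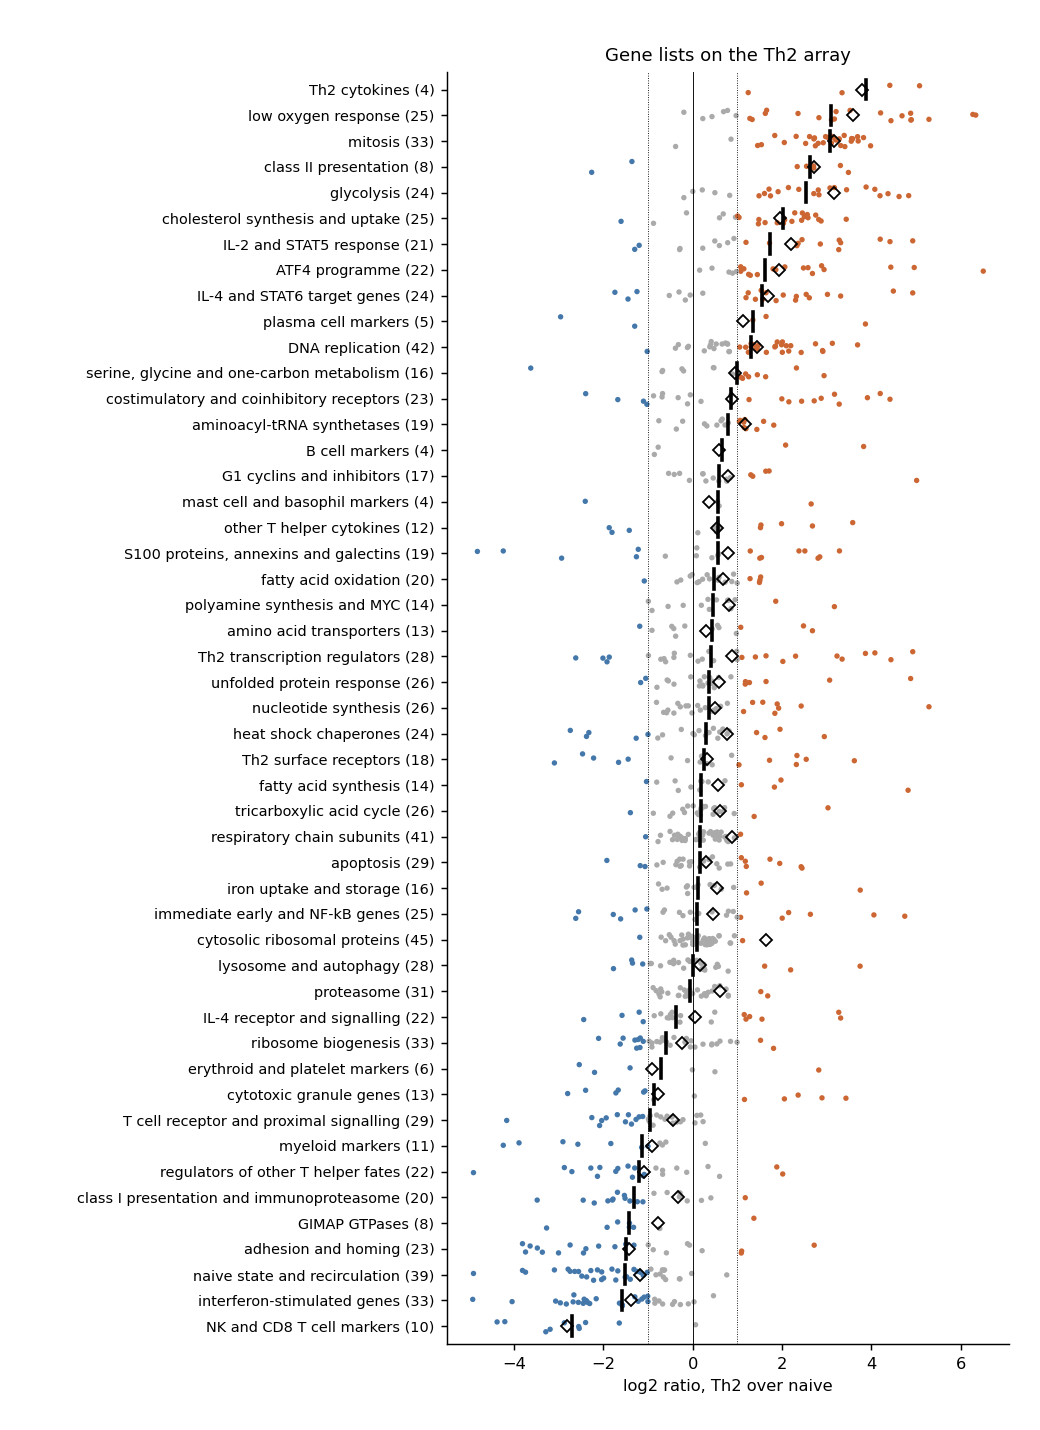
Log2 ratio of Th2 over naive for each measured member of 49 gene lists, ordered by median (number measured in brackets); the black bar is the median after loess, the open diamond the median by median centring, and dotted lines mark 2-fold. Th2 cytokines, the low oxygen response and mitosis have the highest medians (3.88, 3.10 and 3.07) and NK and CD8 T cell markers the lowest (-2.71); the bar and the diamond lie farthest apart for ribosomal proteins (0.10 and 1.64).

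The apparatus of the antigen receptor was lower or near its naive level. No member of 29 measured genes was at least 2-fold higher and 12 were lower, with a median of -0.96 after loess and -0.45 by median centring, where 1 was higher and 6 lower. Txk, a Tec family kinase, had the lowest ratio, from 7225 to 517 (-4.17 ± 0.47). Fyn, a Src family kinase, went from 1554 to 376 (-2.26) and Prkcq, protein kinase C theta, from 9317 to 3428 (-2.09).
Costimulatory receptors of the TNF family had some of the highest ratios among surface genes. Tnfrsf4, OX40, went from 3399 to 162603 (4.42 ± 0.48), and Tnfrsf9, 4-1BB, from 834 to 23404 (4.20, but 0.48 by its other probe). Lag3 and Ctla4, inhibitory receptors, stood at 3.91 and 3.28. Slamf6 (-2.40), Cd27 (-1.68) and Tnfrsf1b (-1.10) were lower, and Cd86 was lower by at least log2 -2.05 (chosen after its value was seen). In all, 11 of 23 were at least 2-fold higher and 4 lower (median 0.85).

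Genes of the naive state and of recirculation were lower nearly throughout. Of 39 measured, 27 were at least 2-fold lower and none higher, with a median of -1.51 (quartiles -2.33 and -0.78; -1.18 by median centring, where 22 were lower and 1 higher). Klf2, the factor that keeps T cells quiescent and recirculating, went from 30821 to 1675 (-4.91 ± 0.51). Its target S1pr1, the receptor for exit from lymph nodes, went from 10397 to 1086 (-3.74 ± 0.42). St6gal1, a sialyltransferase, stood at 0.76, Smad3 at -0.03 and Bcl2 at -0.29. Klf2, S1pr1 and Il7r were among the 4 lowest ratios of the list.
Homing receptors followed a like pattern, with 14 of 23 lower and 3 higher (median -1.50). Cxcr3, the chemokine receptor of Th1 cells, went from 2181 to 193 (-3.64 ± 0.46), and Icam2, an adhesion ligand, from 22264.5 to 3448.5 (-3.48). Higher were Cd44 (2.72, but -0.14 by its other probe), Fut7, a fucosyltransferase (1.09), and Itgav (1.09). GIMAP GTPases, which support lymphocyte survival, had 6 of 8 lower, led by Gimap8 from 18140 to 3111 (-3.27), and Gimap7 was higher (1.37). By median centring 3 of the 8 were lower.

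Response genes of IL-2 and STAT5 were higher in 12 of 21 measured and lower in 2 (median 1.72; 2.19 by median centring). Beside Nfil3, Cish, Socs2 and the receptors already given, the survival gene Bcl2l1 went from 3242 to 31919.5 (2.45 ± 0.31). Over the 20 members measured on all 3 arrays the median was 2.02 in Th2, 0.96 in Th9 and 0.58 in iTreg. The media of these cultures held 1, 0.2 and 0.4 ng/ml of IL-2, in that order. They also differed in IL-4, TGF-β1 and antibodies, so the part of IL-2 cannot be told apart and was not tested. Immediate early and NF-κB genes went both ways, with 6 of 25 higher and 6 lower (median 0.10). Dusp4, a MAP kinase phosphatase, went from 129 to 4710 (4.75 ± 0.59) and Atf3 from 156 to 3588.5 (4.05). Fos and Jun stood at -2.56 and -2.62, and Dusp1 at -1.62. Ier3 was at least log2 3.93 higher.

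Genes of cell division were higher as a group. In the mitosis list 31 of 33 measured genes passed 2-fold upwards and none downwards, with a median of 3.07 (quartiles 2.61 and 3.39; 3.16 by median centring). Ube2c, the ubiquitin-conjugating enzyme of the anaphase-promoting complex, went from 629 to 14261 (3.98 ± 0.44), Tpx2, a spindle protein, from 236 to 4485.5 (3.82 ± 0.45), and Nusap1 from 267 to 4740 (3.70 ± 0.43). The 2 members not called were Cdc25b (0.86) and Pttg1, securin (-0.38). DNA replication genes had 25 of 42 higher and 1 lower (median 1.31), with Gins2, a helicase subunit, from 193 to 2196 (3.12 ± 0.40) and Chaf1a, a histone chaperone, from 260 to 2525 (2.91). Gins3, of the same helicase complex, stood at -0.32 and Pcna, the sliding clamp, at -0.12. Cdkn1a, the cell cycle inhibitor p21, was among the 20 highest ratios on the array, from 244 to 11043 (5.01 ± 0.56), and Ccne1, cyclin E1, stood at 1.71. Over members measured on all 3 arrays the mitosis median was 3.07 in Th2, 3.20 in Th9 and 1.65 in iTreg. That of DNA replication was 1.31, 1.28 and 0.30.
The promoter of Cdc20, an activator of the anaphase-promoting complex (3.31 ± 0.38, chosen after its value was seen), is shown because it holds both motifs common in this list. Capitals mark CCAAT, the box bound by NF-Y, and TTTGAA, the cell cycle homology region, on either strand (RefSeq, GRCm38.p6, chr4:118437344-118437443, minus strand).
Cdc20: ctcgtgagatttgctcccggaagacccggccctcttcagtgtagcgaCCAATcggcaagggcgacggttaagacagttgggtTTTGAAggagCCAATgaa
CCAAT began 53 and 8 bases before the start and TTTGAA 18 bases before it. Among 31 mitosis promoters 23 (74.2%) held CCAAT and 21 (67.7%) TTTGAA, against 39.3% and 12.3% of all measured genes with a promoter. Among all promoters of the table the shares were 37.9% and 18.1%.

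Glycolysis genes were higher in 19 of 24 and lower in none, with a median of 2.54 (quartiles 1.57 and 3.55; 3.16 by median centring). Slc16a3, the lactate exporter, went from 568 to 24283.5 (4.83 ± 0.52), Tpi1, triosephosphate isomerase, from 2368 to 120217 (4.62 ± 0.50) and Pgk1, phosphoglycerate kinase, from 5330 to 278795 (4.37 ± 0.45). Hk2, the inducible hexokinase, went from 197 to 4898.5 (4.19), whereas Hk1, the constitutive one and named after seeing its value, stood at 0.83. Pdk1, which restrains pyruvate oxidation, stood at -0.20, and the monocarboxylate transporter Slc16a1 at 0.00. The summed signal of the 24 genes was 137624 in naive cells and 2394677 in the culture. For the same genes the median ratio was 2.42 on the Th9 array and 2.12 on the iTreg array.
Response genes to low oxygen shared members with these, and 19 of 25 were higher and none lower, with a median of 3.10 (quartiles 1.28 and 4.68). Their median was 2.82 on the Th9 array and 2.11 on the iTreg array. Egln3, a prolyl hydroxylase that targets HIF-1α, went from 143 to 17190 (6.33 ± 0.73), Mgarp, a mitochondrial protein, from 116 to 13326 (6.27 ± 0.73), and Ak4, a mitochondrial adenylate kinase, from 95 to 5435 (5.29 ± 0.71). Ndrg1 and Ero1a both stood at 4.88 and Selenbp1 at 4.89. The naive signals of Egln3, Mgarp and Ak4 were near background, and their ratios carry larger errors. Hif1a itself went from 869.5 to 3638.5 (1.65 ± 0.26, chosen after its value was seen).
The Pgk1 promoter is shown with capitals on ACGTG, the core of the hypoxia response element, on either strand (RefSeq, GRCm38.p6, chrX:106186925-106187099, plus strand).
Pgk1: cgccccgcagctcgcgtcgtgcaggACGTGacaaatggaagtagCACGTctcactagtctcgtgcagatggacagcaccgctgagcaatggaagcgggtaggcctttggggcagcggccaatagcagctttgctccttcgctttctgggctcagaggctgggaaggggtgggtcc
It held 2 matches, 150 and 131 bases before the start. ACGTG was in 15 of 22 promoters of the low oxygen list (68.2%) and 11 of 23 of the glycolysis list (47.8%), against 26.5% of measured genes. Its longer form CACGTG, which MYC binds and which contains ACGTG, was in 9.98% of promoters of higher genes, 11.1% of lower genes and 10.4% of all measured genes.

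After loess, mitochondrial genes stood closer to their naive level. In the tricarboxylic acid cycle 2 of 26 were at least 2-fold higher and 1 lower (median 0.18). By median centring 7 were higher and 1 lower (median 0.60). Pcx, pyruvate carboxylase, went from 238 to 2544 (3.03 ± 0.38) and Dlat, a subunit of pyruvate dehydrogenase, from 429 to 173 (-1.40 ± 0.28). Of 41 respiratory chain subunits 1 was higher and 1 lower after loess (median 0.16), but by median centring 16 were higher (median 0.87). Fatty acid oxidation had 4 of 20 higher after loess, led by Acads (1.52), and 1 lower, Acaa1a (-1.09), with a median of 0.47. By median centring 9 were higher and none lower (median 0.67). In fatty acid synthesis the median was 0.19, yet Scd2, a stearoyl-CoA desaturase, went from 1474 to 76452 (4.82 ± 0.51), and Elovl6, an elongase, stood at 1.97.

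Cholesterol genes were higher along most of the pathway, 19 of 25 with 1 lower (median 2.03, quartiles 1.00 and 2.50; 1.94 by median centring). Hmgcs1, the synthase at the head of the pathway, went from 2666 to 31722.5 (2.75 ± 0.33), Sqle, squalene epoxidase, from 1241 to 13063 (2.82 ± 0.34), and Lss, lanosterol synthase, from 293.5 to 2805.5 (2.87 ± 0.36). Stard4, a sterol carrier, had the highest ratio (3.44). The cholesterol exporters Abcg1 (-1.61) and Abca1 (-0.88) had the lowest. Of the synthesis enzymes, Mvk, mevalonate kinase, stood at 0.60 and Ebp, a sterol isomerase, at -0.14. The median of the list was 2.14 on the Th9 array and 1.56 on the iTreg array.
The Hmgcs1 promoter is shown with capitals on CCAAT or its reverse complement ATTGG (RefSeq, GRCm38.p6, chr13:119690101-119690350, plus strand).
Hmgcs1: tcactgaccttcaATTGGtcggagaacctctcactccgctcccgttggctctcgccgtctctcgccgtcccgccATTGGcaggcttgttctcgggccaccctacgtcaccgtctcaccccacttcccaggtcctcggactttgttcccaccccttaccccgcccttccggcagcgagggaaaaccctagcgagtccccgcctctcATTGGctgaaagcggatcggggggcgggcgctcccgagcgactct
It held 3 matches, which began 237, 176 and 45 bases before the start. CCAAT was in 15 of 17 promoters of this list (88.2%), against 39.3% of measured genes and 37.9% of all promoters.

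The highest ratio of the array belonged to Asns, asparagine synthetase, from 161 to 22164 (6.50 ± 0.73, 90.7-fold). It is a target of ATF4, the transcription factor of the amino acid response, and that programme was higher in 17 of 22 measured genes and lower in none, with a median of 1.62 (1.93 by median centring). Stc2, stanniocalcin, went from 118.5 to 5101.5 (4.96 ± 0.62), Nupr1, a stress protein, from 94 to 2927 (4.43 ± 0.61) and Psat1, of serine synthesis, from 1552 to 18692 (2.94, and 1.71 by its other probe). Bounds added 4 genes, of which Vldlr was at least 4.93 and Cth at least 3.66 higher (Cth, Atf4 and Trib3 were chosen after their values were seen). Atf4 mRNA itself went from 19644.5 to 115119 (1.14 ± 0.23, 2.26 by median centring) and Trib3, a pseudokinase that ATF4 induces, from 1035 to 11036 (2.88). Pck2, Ddit4 and Aldh18a1 were the measured members with the smallest ratios (0.15, 0.43 and 0.81). Over the 19 members measured on all 3 arrays the median was 1.45 in Th2, 1.27 in Th9 and 0.66 in iTreg.
The promoters of Asns and Nupr1 are shown with capitals on TGATGNAA or its reverse complement, the letters of the amino acid response element (RefSeq, GRCm38.p6; Asns at chr6:7693210-7693309, minus strand; Nupr1 at chr7:126625471-126625605, minus strand).
Asns: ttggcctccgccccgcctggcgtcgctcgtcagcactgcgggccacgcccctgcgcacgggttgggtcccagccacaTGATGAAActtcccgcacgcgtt
Nupr1: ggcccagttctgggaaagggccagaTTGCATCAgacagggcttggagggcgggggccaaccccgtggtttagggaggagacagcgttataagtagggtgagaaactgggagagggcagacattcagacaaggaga
The match began 23 bases before the start of Asns and 110 bases before that of Nupr1, where it lies on the opposite strand. The motif was in 9 of 26 promoters of the list (34.6%), against 2.33% of measured genes and 4.06% of all promoters.
Serine and one-carbon genes had 8 of 16 higher and 1 lower (median 0.98). Ahcy stood at 2.32 and Mthfd1l at 1.63, while Mat2a, which makes S-adenosylmethionine, went from 15454.5 to 1934 (-3.63, and -2.34 by its other probe). Aminoacyl-tRNA synthetases had 9 of 19 higher and none lower (median 0.79), with Cars at 1.81, Aars at 1.59 and Wars at -0.76 (0.25 by its other probe). In the unfolded protein response 6 of 26 were higher and 2 lower. P4hb, protein disulphide isomerase, went from 2443.5 to 36223.5 (3.06), but Dnajb9 (-1.05) and Dnajc3 (-1.17) were lower, and Hspa5, which encodes BiP and was named after seeing its value, stood at 0.15.

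Nucleotide synthesis had 8 of 26 higher and none lower (median 0.36), led after Ak4 by Tk1, thymidine kinase (2.43), and Paics, of purine synthesis (1.92). Odc1, ornithine decarboxylase, the entry to polyamines, went from 1117 to 15123 (3.17 ± 0.36). Myc, chosen after its value was seen, went from 2169 to 5340 (0.78 ± 0.22). Amino acid transporters had 3 of 13 higher and 1 lower, with Slc7a3, a transporter of cationic amino acids, from 76 to 685 (2.68) and Slc7a6 at -1.19.
The machinery of protein synthesis depended on the scaling. Of 45 cytosolic ribosomal proteins, 1 was at least 2-fold higher and 1 lower after loess (median 0.10), and 42 were higher by median centring (1.64). Their summed signal was 3506771 in naive cells and 12982718 in the culture. Which of these describes the cells was not tested. Ribosome biogenesis genes had 2 of 33 higher and 9 lower after loess (median -0.59; -0.23 by median centring, and 0.10 without subtracting the shift). Npm1, nucleophosmin, went from 31057 to 278849 (1.52), whereas Heatr1 stood at -1.62, Bop1 at -1.56 and Pes1 at -2.11 (0.27 by its other probe). Proteasome subunits had a median of -0.07 after loess and 0.62 by median centring. Among chaperones Hspa1a stood at 2.94 and Hsph1, Dnajb1 and Dnaja1 at -2.74, -2.38 and -2.33.

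Interferon-stimulated genes were lower, 23 of 33 measured with none higher and 3 more were lower by bounds. Their median was -1.58 (quartiles -2.45 and -0.85; -1.37 by median centring). Rtp4, a receptor transport protein, went from 6718 to background, lower by at least log2 -6.27. Ifi204, a DNA-binding protein of the Ifi200 family, went from 5380 to 204 (-4.93 ± 0.58), Oas2, an oligoadenylate synthetase, from 1860 to 259 (-3.07) and Oas1a from 2375 to 157.5 (-4.04, and -2.03 by its other probe). Members near the naive level included Stat2 (-0.10), Oas3 (0.03) and Dhx58 (0.46). Ly6a, Sca-1, was at 5690 and 7600 (-0.28), while it stood at -4.15 on the Th9 array and -3.58 on the iTreg array. Over the 29 members measured on all 3 arrays the median was -1.30 in Th2, -2.62 in Th9 and -1.41 in iTreg.
The promoter of Ifit1, an inhibitor of viral RNA translation (918 to 173.5, -2.56, chosen after its value was seen), is shown with capitals on the interferon-stimulated response element, read as 2 copies of TTTC with any 2 bases between (RefSeq, GRCm38.p6, chr19:34640760-34640888, plus strand).
Ifit1: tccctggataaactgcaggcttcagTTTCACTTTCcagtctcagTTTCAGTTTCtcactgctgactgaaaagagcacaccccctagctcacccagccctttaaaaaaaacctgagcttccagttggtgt
It held 2 matches, 104 and 85 bases before the start. The motif was in 15 of 27 promoters of the list (55.6%), against 3.09% of measured genes and 3.49% of all promoters.

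Class I presentation genes were lower after loess, 12 of 20 with 1 higher (median -1.32), but by median centring 4 were lower (-0.33). Nlrc5, their transcriptional activator, was lower on either scale, from 7521 to 908 (-3.48 ± 0.40; -3.33 by median centring). H2-K1 went from 161007 to 99643 (-2.45; -0.99 by median centring). Of the class II genes, 6 of 8 were higher and 2 lower (median 2.62). H2-Ab1 went from 2065 to 35452 (3.31 ± 0.38), H2-DMb1 from 155 to 2282.5 (3.48 ± 0.44) and Cd74, the invariant chain, from 518.5 to 4502.5 (2.71 ± 0.33). Ciita, the activator of class II genes, was at background in both channels, as were the B cell markers Ms4a1 and Cd79a, while the B cell genes Cd79b and Fcmr stood at 2.08 and 3.82. The part of B cells in these ratios was not tested. H2-Ob (-1.36) and Ctss, cathepsin S (-2.26), were lower.

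Among S100 proteins, annexins and galectins 8 of 19 were higher and 5 lower. Lgals3, galectin-3, went from 1023 to 14864.5 (3.28 ± 0.38), Anxa2 from 6069 to 95253 (2.80) and Anxa4 stood at 2.84. S100a4 went from 5964.5 to 248.5 (-4.82 ± 0.56) and S100a6 from 5178 to 890 (-2.94 ± 0.35). S100a9 (-4.24) and S100a8 (lower by at least log2 -3.08) are neutrophil genes and stood beside the myeloid markers above. In apoptosis 7 of 29 were higher and 3 lower, with the survival gene Bcl2l1 at 2.45, the BH3-only gene Pmaip1 at 2.43, and Tnfsf10, TRAIL, at -1.92. Mcl1 stood at -1.18 after loess and at -0.29 by median centring. Tfrc, the transferrin receptor, went from 254 to 4586 (3.75 ± 0.44). Gabarapl1, an autophagy gene, went from 1315 to 28468 (3.75 ± 0.42), in a list of lysosome and autophagy genes with a median of 0.01.

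Several of the highest ratios belonged to genes outside these lists. Tgm2, transglutaminase 2, went from 324 to 25170 (5.71 ± 0.62, and 4.14 by its other probe), Tg, thyroglobulin, from 224 to 16517 (5.67 ± 0.63) and C1qtnf12, a secreted protein, from 1017 to 84537 (5.54 ± 0.59). Tubb6, a β-tubulin, stood at 5.44, Serpinf1 at 5.20 (2.84 by its other probe), Timd2 at 5.01 and Espn, an actin-bundling protein, at 4.90. On the Th9 and iTreg arrays Tubb6 stood at 5.60 and 5.27, Tg at 5.56 and 4.60 and C1qtnf12 at 5.22 and 3.83. Espn stood there at 4.83 and 3.16 and Tgm2 at 5.20 and 1.90, while Serpinf1 and Timd2 were not measured on either. The bound for Pdgfa, a growth factor with no naive signal above background, was at least 4.64. Perp and Pkp2, of cell junctions, were at least 4.01 and 3.95 higher.
At the other end Ms4a4b, a membrane protein of T cells, went from 84897 to 5380, the lowest ratio of a named gene (-5.10 ± 0.52). Cd1d1, which presents lipids, went from 4119 to 154 (-4.86), Slfn8, of the Schlafen family, from 4028.5 to 173 (-4.71), Hsd11b1, an activator of glucocorticoids, stood at -4.68 and Vipr1, the receptor of vasoactive intestinal peptide, at -4.31. Rasa3, a Ras inhibitor, stood at -4.06. Mndal, of the Ifi200 family, stood at -4.88 and Ifi209 was lower by at least log2 -5.92, and cross-hybridisation within that family was not tested.

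The Th2 ratios were then set beside those of the other cultures, each against the naive channel of its own array. Whether these naive channels held 1 RNA extract is not stated. Of 10353 genes measured on all 3 arrays, 75 (0.724%) had a Th2 ratio at least 2-fold above both the Th9 and the iTreg ratio, and 79 (0.763%) at least 2-fold below both. Il4 and Il13 are not among the 10353, since each lacked signal above background on 1 array. Pparg stood at 3.34 in Th2, 1.31 in Th9 and 0.55 in iTreg, Il3 at 3.34, 1.44 and 0.40, and Ecm1 at 1.87, 0.18 and -0.33. Krt18, a keratin, stood at 4.37, 2.69 and 0.92 and Akr1b8, an aldo-keto reductase, at 3.35, 1.13 and 1.13. Adam8, a membrane metalloprotease, had culture signals of 1341.5, 187 and 128 on the Th2, Th9 and iTreg arrays (2.00, -0.86 and -1.25). Cst7 had 13276, 2208 and 1610 (2.89, 0.50 and 0.13). Ly6c1 was lower than naive in all 3 but least in Th2, at -2.31, -5.77 and -5.05 (-4.05 by its other Th2 probe).
Below both others stood Foxp3, Ccr6 and Nt5e among others. Foxp3 stood at -0.68 in Th2, 1.28 in Th9 and 3.49 in iTreg, Ccr6 at -2.11, 1.64 and 4.78, and Nt5e, the ectoenzyme CD73, at -1.22, 2.50 and 3.24. Atp1b1, a subunit of the sodium pump, had culture signals of 525, 7181 and 16531 (-3.96, -0.53 and 0.92). Aqp3, a water and glycerol channel, stood at -0.84, 3.01 and 2.20, and Kit at 0.55, 2.83 and 2.93. The arrays lie side by side on 1 slide, so position and culture cannot be told apart, and the differences were not tested.
Il4 gave culture signals of 6467 in Th2, 303 in Th9 and 60.3, at background, in iTreg. Il13 gave 3680, 209.5 and 124, and Gata3 12986, 9269 and 5825. For all 3 genes the order was Th2, Th9, iTreg. Il21 had 1611 in Th2 and was at background in the others (68 and 54.5).

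**Figure D5:**
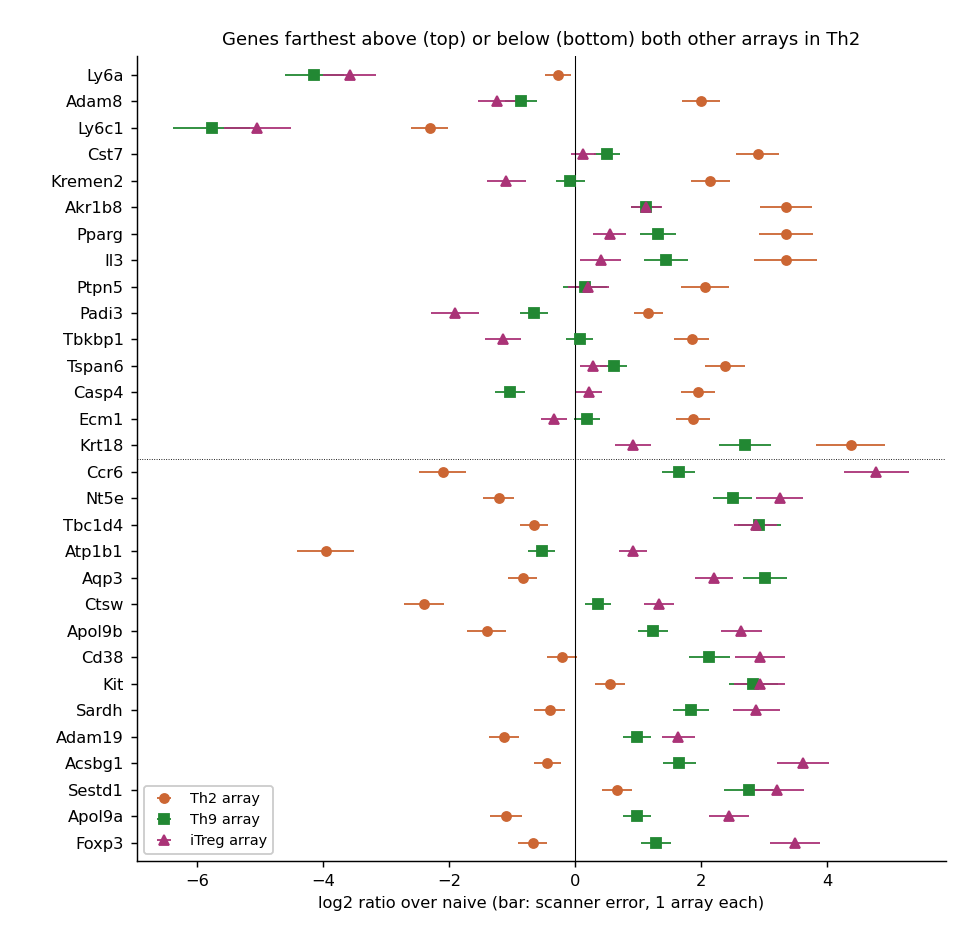
Log2 ratio over naive on the 3 arrays for the 15 genes whose Th2 ratio lay farthest above and the 15 farthest below the nearer of the other ratios. The bar is the scanner's error of its own ratio (1 array each). Ly6a (-0.28 in Th2) and Adam8 (2.00) are farthest above, and Ccr6 (-2.11) and Nt5e (-1.22) farthest below.

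Over all genes called by size, the motif shares in promoters were as follows. The STAT palindrome was in 5.48% of 1313 promoters of higher genes, 5.34% of 1293 of lower genes and 5.34% of all measured genes. The interferon-stimulated response element was in 2.21%, 4.80% and 3.09%, ACGTG in 31.0%, 23.4% and 26.5%, and TTTGAA in 15.8%, 11.3% and 12.3%. Median GC content of the promoters was 60.3% in higher and 60.7% in lower genes.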

How the data were processed

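RNA of 3 cultures and of naive cells was hybridised to Agilent 2-colour mouse arrays, 1 array per culture, on 1 slide. The deposited scanner files hold spot and background intensities, extracted with Agilent Feature Extraction 11.0.1.1 per the file headers (9.3.2.1 per the submitters' processing notes), and the software's log10 ratio and its error. The authors' deposited series table holds log2 ratios, used as an alternative. Set against the scanner's own log2 ratios over 39415 probes of the Th2 array, its values ran the same way (r = 0.9986 across probes of 1 array) at a like scale (median quotient 0.981). The column medians were 0.14 (Th2), 0.26 (Th9) and 0.28 (iTreg), and how the authors centred them stays unknown.

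From the median intensities, background was corrected by normexp (offset 50) and the arrays normalised by loess with limma 3.58.1 in R 4.3.3, then summarised in Python 3.11.15 with pandas 2.3.3 and numpy 2.4.6 and drawn with matplotlib 3.10.9. The code was tested on simulated data. Control probes and outlier spots (278 of 43020 spots) were left out. Probes were matched to genes by RefSeq accession (26043 of 39415; GRCm38.p6), and the brightest probe over the arrays stands for a gene. The disagreement is given where other probes differ by more than 2-fold (435 of 2574 genes with several measured probes). A gene is measured if both channels are well above background. With signal in 1 channel only, the ratio is an estimated bound. It sets the bright channel against the higher of the dim probe's own value and the lowest value of probes above background. The values are per channel after loess and Aquantile and open to dye bias. Such a bound is no strict limit: that of Dpf1 was 3.76, while its other probe, measured in both channels, gave 2.59. Scanner error is the software's log10 error as log2, and it belongs to the software's own ratio and not to the ratio after loess. Arrays have no depth, and 1 array limits the precision.

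The members and the 49 gene lists were chosen with earlier results of these data known. Named are all measured or bounded members of the 5 lists on Th2 cytokines, regulators, IL-4 signalling, IL-4 targets and receptors, the 20 highest and 20 lowest ratios, 10 bounds in each direction, the 4 highest and 4 lowest of every other list, and the 15 genes farthest above and below both other arrays. From these the text gives a selection. Other genes are said to be chosen after their values were seen. The scanner's p-values were not used. Promoters (300 bases, 250 of them before the start) come from RefSeq, and 8846 measured genes (80.8%) had one. Where a gene had several (4163 genes), the first listed was used, which need not be its main start. The motif share of a list counts every member with a promoter, measured or not. Shares of all promoters cover 27025 genes. A few members are not reported here.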

Additional observations from a re-analysis of the deposited data

Results flagged for a closer look

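Several named genes stood at least 2-fold from naive on the Th2 array and at least 2-fold the other way on another array. Each array is 1 culture, and none of these differences was tested.

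Higher in Th2 and lower in iTreg were Gzmb, granzyme B (2.36 in Th2, -1.85 in iTreg, 0.82 in Th9), Kremen2 (2.14, -1.09, -0.08), Adam8 (2.00, -1.25, -0.86), Tbkbp1, an adaptor of the kinase TBK1 (1.84, -1.15, 0.07), and Padi3, a protein deiminase (1.16, -1.92, -0.65). Casp4, an inflammatory caspase, was higher in Th2 (1.95) and lower in Th9 (-1.04), and stood at 0.22 in iTreg.

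Lower in Th2 and higher in iTreg, in the order Th2, iTreg and Th9, were Smpdl3a, a phosphodiesterase related to acid sphingomyelinase (-4.12, 1.11, -2.59), Ctsw, cathepsin W (-2.40, 1.33, 0.36), Bcl6, the follicular helper factor (-1.45, 1.52, -1.66), Adam19, a metalloprotease (-1.14, 1.63, 0.98), Tnfrsf1b, a TNF receptor (-1.10, 1.83, 0.03), and Apol9a, an apolipoprotein L gene (-1.10, 2.43, 0.98). Ccr6 (-2.11, 4.78, 1.64), Nt5e (-1.22, 3.24, 2.50) and Apol9b (-1.41, 2.63, 1.24) were higher in both other cultures. The naive signals of Apol9b were 383, 452 and 1105 on the Th2, Th9 and iTreg arrays, and those of Apol9a 555, 651 and 1383. The part of that spread was not tested.

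Probes with no gene name here carried signal outside the gene comparison. Of 4460 such probes above background in both channels, 521 (11.7%) were at least 2-fold higher in Th2 and 559 (12.5%) lower. Their lowest ratio was -7.01 and their highest 5.22.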

How the results depend on the processing

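The counts of 1621 higher and 1591 lower genes changed by over 1.5 times under 1 of 7 alternatives, a single median per array in place of loess (2783 higher and 810 lower). They were 1714 and 1620 with no background correction, 1880 and 2039 by the scanner software's own ratio, 1977 and 1901 by the authors' series values, 1573 and 1446 with the mean of all probes, 1643 and 1608 with the naive channels of all 3 arrays, and 1957 and 1744 with no filter on dim spots (19745 genes). Of 444 named genes, 4 called lower went to the other side of 0 under median centring, before its shift is subtracted: Mcl1 at 0.036, Ndufa1 at 0.15, Rpa1 at 0.12 and Rps27 at 0.80. A further 288 moved by more than their scanner error there, 116 with the scanner's ratio and 115 with the series values, without reversal. List medians changed sign under median centring for IL-4 receptor and signalling (-0.37 to 0.39), ribosome biogenesis (-0.59 to 0.10) and the proteasome (-0.07 to 0.95), by the series values for the proteasome (0.02), and for lysosome and autophagy genes (0.01) by the scanner's ratio (-0.12), the series values (-0.07) and all 3 naive channels (-0.02). The causes were not tested. No paired analysis was possible because each culture had 1 replicate; for the same reason no replicate could be left out. Signal over background limits the ratios of genes whose naive signal was near 100, such as Il4 and Il13, and the dye was not swapped.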

Other observations

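Genes with signal above background in the Th2 channel but not in the Th9 or iTreg culture channel numbered 411 of 11654 (3.53%). Most were dim, with a median Th2 signal of 120. Il21 was the brightest, at 1611 against 68 and 54.5. Lilr4b, an inhibitory immunoglobulin-like receptor, had 357 and Slamf7, a receptor of the SLAM family, 338. These genes were picked by their values, and the differences were not tested.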
